A study of Homo sapiens with 2 samples.

Results

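The bodies of 8 very long human genes at common fragile sites (LRP1B, FHIT, IMMP2L, CNTNAP2, CSMD1, PTPRD, WWOX and MACROD2) were examined in maps of chromosome folding from HEK293T cells. The genes were chosen by name, and each body was read from fixed hg19 positions given to the nearest 10 kb, with 500 kb added on either side. Together the bodies span 14.14 Mb of the 2883 Mb that carried a compartment score, and the 16 flanks span 8 Mb. HEK293T is an established line derived from human embryonic kidney cells, into which the large T antigen of the virus SV40 was introduced. The study made in situ Hi-C libraries from it, in which fixed chromatin is cut with MboI, nearby ends are joined and the junctions are sequenced. There were 2 libraries of 1 group, both of cells fixed in 1% formaldehyde with no other treatment, and no second condition. The titles of both libraries read HEK293 rather than HEK293T. The labels do not say whether the libraries came from separate cultures.

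The 3 tables give 1 set of values for both libraries together. No value below therefore has a replicate error, and no test between groups was possible. The maps held a score for each 1 Mb bin, 3845 contact domains and 1507 loops. A contact domain is a stretch of sequence that touches itself more often than its surroundings, and a loop is a focal peak of contact joining a pair of anchors. The tables list only what passed the authors' callers, so a stretch described as free of domains is one for which none was listed. The number of reads was not given, so depth can be read only from the contacts counted at the loops.

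Common fragile sites are regions of chromosomes that show gaps and breaks when DNA replication is slowed. Many lie within very long genes and are replicated late, with few sites at which replication starts. Deletions inside these genes are frequent in tumours. Late-replicating chromatin belongs for the most part to the B compartment, the less active of the pair of compartments seen in Hi-C maps. Replication, transcription and breakage were not measured in these files, nor was the copy number of these regions in this line.

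Contact domains were almost absent from the 8 bodies. They covered 325 kb of the 14.14 Mb, or 2.30%, against 35.6% of the flanks, 39.3% of the 7 chromosomes that hold the genes and 41.7% of the scored genome. No domain lay wholly inside a body. LRP1B, IMMP2L, CSMD1, PTPRD and WWOX had no base in a domain, and the other 3 were touched only at an end, by 1 domain each. FHIT had 105 kb covered (7.0%), CNTNAP2 160 kb (6.93%) and MACROD2 60 kb (2.93%). The share was 1.39% without CNTNAP2, which held the longest covered piece. In bodies divided into 10 equal sections, domains reached the lowest section of 2 genes and the highest section of 1, and the 8 sections between them held none in any gene. With each body shortened by 100 kb at both ends, 0.518% was covered.

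**Figure D1:**
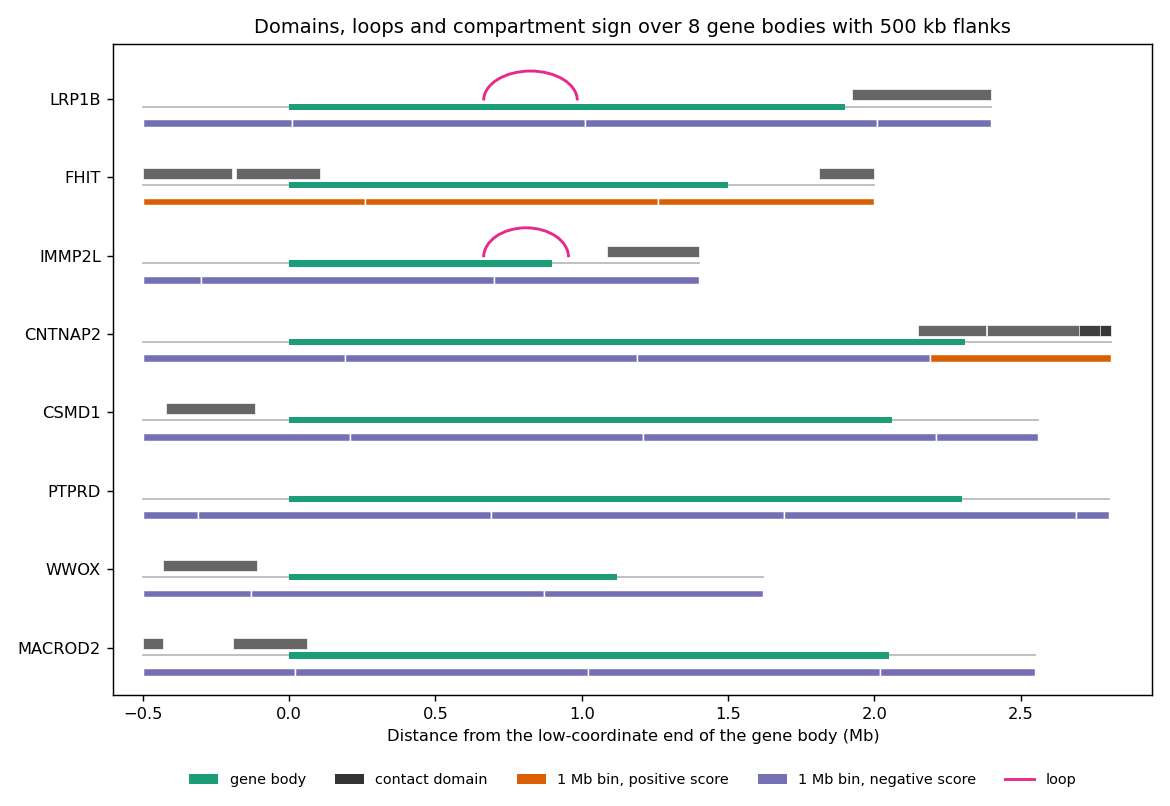
Map of each gene body (green) with 500 kb on either side, on an axis of distance in Mb from the low-coordinate end of the body. Grey blocks are contact domains, pink arcs are loops up to 2 Mb, and the lower strip gives the sign of each 1 Mb bin. The bodies are free of domains except at 1 end of FHIT, CNTNAP2 and MACROD2, and no domain lies in the PTPRD window.

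Windows of this size with little or no domain coverage were common in the map, so the coverage of most single genes was not unusual for their chromosomes. For each gene, windows of the same length were laid every 100 kb along the scored bins of its chromosome. Neighbouring windows overlap one another, and windows laid over the gene itself were counted too. The share of windows with no more of their length in domains than the gene body had was 14% for LRP1B, 23.1% for FHIT, 26.1% for IMMP2L, 13.1% for CNTNAP2, 10.5% for CSMD1, 19.6% for PTPRD, 21.6% for WWOX and 2.98% for MACROD2. Among windows whose bins all had the sign of the gene's own bins, the shares were higher for 7 genes: 22.4% for LRP1B, 35.6% for IMMP2L, 24.5% for CNTNAP2, 21.4% for CSMD1, 44.2% for PTPRD, 27.7% for WWOX and 4.6% for MACROD2. The FHIT share was lower, at 5.44% of windows in positive bins. Over all windows of a gene's chromosome, whatever their sign, the median covered share ran from 31.7% on chromosome 3 to 50.5% on chromosome 20. Of the 14 bins of 1 Mb whose midpoint lay in a body, 10 had no base in a domain. Over all chromosomes 25.2% of bins had none, as did 25.3% on the 7 chromosomes and 36.1% of the negative bins there.

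**Figure D2:**
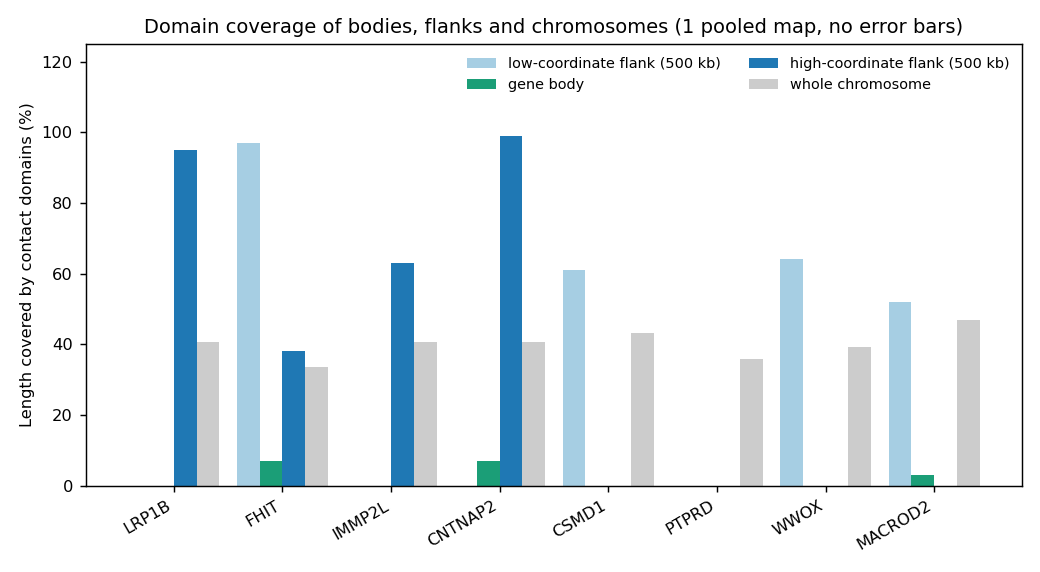
Share of length covered by contact domains (%) in the low-coordinate flank, the body and the high-coordinate flank of each gene, and over its whole chromosome; a missing bar is 0. Bodies reach at most 7.0%, while single flanks range from 0 to 99% and whole chromosomes from 33.7 to 46.9%.

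The flanks differed from gene to gene. Domains covered more of the flanks than of the body in 7 genes, and in PTPRD body and flanks were alike at 0. Of 16 flanks, 8 held part of a domain. In 6 genes only 1 of the 2 flanks did so, and FHIT alone had domains in both. How often other 500 kb pieces of these chromosomes hold part of a domain was not counted. The counts of flanks in this paragraph, by position or by direction, therefore have no such share beside them. The high-coordinate flank was 95% covered beside LRP1B, 63% beside IMMP2L and 99% beside CNTNAP2, where the low-coordinate flank held none. The reverse held for CSMD1 (61%), WWOX (64%) and MACROD2 (52%), whose domains lay in the low-coordinate flank. FHIT had 97% of its low-coordinate and 38% of its high-coordinate flank in domains. The direction of transcription was set for 6 of the genes, and LRP1B and CSMD1 were not placed in this way. Among the 6, a domain lay in the flank before the start of 4 (FHIT, IMMP2L, WWOX and MACROD2). A domain lay in the flank after the end of 2 (FHIT and CNTNAP2).

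**Figure D3:**
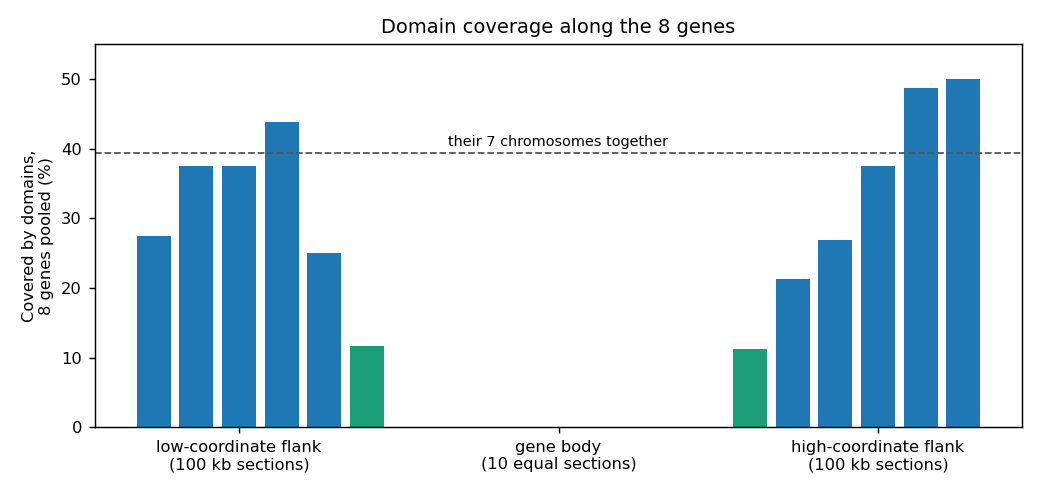
Share of length covered by contact domains (%) with the 8 genes pooled, in 100 kb sections of the flanks (blue) and 10 equal sections of the bodies (green). The dashed line is the 39.3% covered on their 7 chromosomes. Coverage is 11.7% and 11.3% in the outer sections of the bodies, 0 in the 8 between them, and 21.2 to 50.0% in the flank sections.

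Domain ends were correspondingly few. The bodies held 3 ends (0.212 per Mb) and the flanks 15 (1.88 per Mb), a difference of -1.66 per Mb, bodies minus flanks (95% interval from Poisson limits -2.89 to -0.74). That interval covers counting error only and treats the ends as independent, which the 2 ends of 1 domain are not. Over the genome there were 2.65 ends per Mb, and in the negative bins of the 7 chromosomes 1.55 per Mb. The 3 ends inside bodies were the inner ends of the domains at the edges of FHIT, CNTNAP2 and MACROD2. The contrast with the flanks rested largely on domains of low caller score, a number that the authors' caller gave each domain and whose meaning the file does not state. Of 13 domains in the 8 windows, 9 scored below the genome-wide median of 1.20. With only domains above that median, 1.56% of the bodies and 8.56% of the flanks were covered, and the difference in ends shrank to -0.36 per Mb. The same filter lowers coverage anywhere, and its effect on the chromosomes or the genome was not tested. How far the loss is particular to these flanks is therefore not known.

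Among the genes for proteins of the cell surface, PTPRD, which encodes a receptor-type tyrosine phosphatase known from neurons, lay in the widest empty stretch. Its body (chr9:8310001-10610000) fell in 6665 kb without a domain, from 6035001 to 12700000, which was the longest such stretch of chromosome 9 and ranked 13 of 3480 in the genome. The nearest domains were 2275 kb and 2090 kb from the ends of the body. RefSeq places TYRP1 and DMAC1 as the next protein-coding genes on either side.

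CNTNAP2 encodes a cell adhesion protein of the neurexin family. Its body (chr7:145810001-148120000) lay mostly in a stretch of 4855 kb, which ranked 2 of 172 on chromosome 7. Domains began 160 kb before the high-coordinate end, where the gene ends. The domain there (147960001 to 148190000, caller score 1.29) was followed after 5 kb by another of 480 kb (score 1.18) that held 2 smaller domains of 155 and 65 kb. The compartment score turned from -0.134 to 0.003 between the bins that meet at 148 Mb, the only change of sign in any of the 8 windows.

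LRP1B encodes a large receptor of the low density lipoprotein receptor family. Its body (chr2:140990001-142890000) lay in 3330 kb without a domain. A domain of 810 kb began 25 kb beyond the high-coordinate end, the shortest distance from any of the uncovered body ends to a domain. Its caller score was 0.552, above that of only 0.754% of all domains. CSMD1, which encodes a membrane protein with CUB and sushi domains, had a body (chr8:2790001-4850000) in a stretch of 3595 kb, which ranked 3 of 179 on its chromosome. The domain before it ended 115 kb away and also had a low score (0.559).

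The other 4 genes encode enzymes. MACROD2 removes ADP-ribose from proteins. Its body (chr20:13980001-16030000) had the lowest window share of the 8, given above, and the stretch of 2735 kb that held most of it was the longest of chromosome 20. A domain of 250 kb (13790001 to 14040000) with a score of 1.49, above that of 84.2% of domains, covered its first 60 kb. MACROD2 was thus the only gene of the 6 for which direction was set whose transcription start lay in a domain.

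FHIT, a hydrolase of dinucleoside polyphosphates, had the shortest domain-free stretch of the 8. Its body (chr3:59740001-61240000) was covered at the low-coordinate end, where the gene ends, by a domain of 285 kb (score 0.906), and the 1705 kb from there to the next domain ranked 22 of 206 on chromosome 3. WWOX, an oxidoreductase with WW domains, had a body (chr16:78130001-79250000) in 2525 kb without a domain. The domain before it, of 320 kb with a score of 1.08, ended 110 kb before the gene's start. IMMP2L, a subunit of the inner membrane peptidase of mitochondria, had the shortest body (chr7:110300001-111200000) and filled only 27.4% of its stretch of 3285 kb. The domain that followed, 185 kb beyond the gene's start, was 710 kb long and had the highest score of the 13 (1.65).

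**Figure D4:**
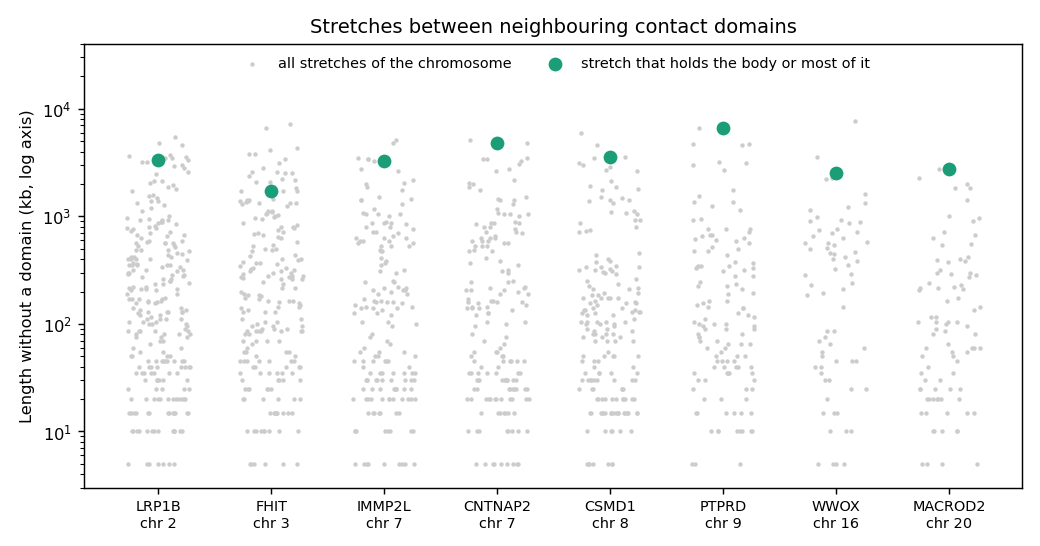
Length of each stretch between neighbouring contact domains (kb, log axis) on the chromosome of each gene, with no unscored bin inside. Grey points are all stretches and green points are those that hold the gene body or most of it. The green points lie between 1705 and 6665 kb, at rank 1 on chromosomes 9 and 20 and at rank 22 of 206 on chromosome 3.

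All 8 stretches were longer than 500 kb, as were 20.5% of the 3480 stretches of the genome. A body of 0.9 to 2.31 Mb without a domain can only lie in a long stretch, so this follows from the coverage. Stretches at least as long as the shortest of the 8 numbered 230 and made up 26.7% of the scored genome.

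The starts of 4 genes are shown because a domain or a loop lay near an end of each body. The bodies of MACROD2, FHIT and CNTNAP2 were touched by a domain, which held the start of MACROD2 but not those of FHIT and CNTNAP2, and a loop anchor lay 55 kb from the start of IMMP2L. Each line gives the 250 bases before the transcription start, 5′ to 3′ on the gene's strand, from RefSeq on GRCh38.p14, a different build from that of the Hi-C tables, with CpG dinucleotides in capitals.
MACROD2 (chr20:13995266-13995515, plus strand): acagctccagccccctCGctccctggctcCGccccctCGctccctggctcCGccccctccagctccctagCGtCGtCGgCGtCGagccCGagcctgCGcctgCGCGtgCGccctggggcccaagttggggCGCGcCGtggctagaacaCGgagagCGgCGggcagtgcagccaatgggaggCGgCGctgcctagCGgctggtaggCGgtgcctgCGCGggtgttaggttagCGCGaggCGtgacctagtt
FHIT (chr3:61251453-61251702, minus strand): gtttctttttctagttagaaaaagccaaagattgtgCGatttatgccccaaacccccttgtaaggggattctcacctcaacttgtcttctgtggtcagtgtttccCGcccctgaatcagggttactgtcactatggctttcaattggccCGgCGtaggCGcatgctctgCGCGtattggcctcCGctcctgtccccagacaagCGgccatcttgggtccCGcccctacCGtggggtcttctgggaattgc
CNTNAP2 (chr7:146116551-146116800, plus strand): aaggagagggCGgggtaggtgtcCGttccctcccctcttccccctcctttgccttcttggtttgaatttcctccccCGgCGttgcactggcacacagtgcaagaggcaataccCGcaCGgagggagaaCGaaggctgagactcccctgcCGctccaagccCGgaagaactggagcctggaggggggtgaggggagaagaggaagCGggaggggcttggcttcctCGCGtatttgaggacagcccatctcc
IMMP2L (chr7:111562493-111562742, minus strand): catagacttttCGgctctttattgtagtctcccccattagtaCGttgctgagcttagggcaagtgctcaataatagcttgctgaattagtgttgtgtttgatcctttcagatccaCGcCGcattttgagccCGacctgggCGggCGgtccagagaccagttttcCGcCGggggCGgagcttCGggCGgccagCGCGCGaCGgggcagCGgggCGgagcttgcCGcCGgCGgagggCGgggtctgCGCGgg
Such a sequence was used for 6 of the 8 genes, all but LRP1B and CSMD1. Where a gene had several starts the outermost was taken. The 250 bases held 29 CpG in MACROD2, 11 in FHIT, 12 in CNTNAP2, 24 in IMMP2L, 32 in PTPRD and 27 in WWOX. Over 35114 starts in the table the median was 11, with quartiles at 3 and 23, and 93.9% held at least 1 CpG. The starts of 4 of these 6 genes, all but FHIT and CNTNAP2, were thus above the upper quartile. Methylation and binding at these starts were not measured.

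Compartment scores were negative along 7 of the 8 genes. Of the 14 bins with their midpoint in a body, 13 were negative (92.9%, 95% Wilson interval 68.5 to 98.7%, which treats bins as independent), and of the 16 bins of the flanks 13 were. Over all chromosomes 51.1% of bins were negative, and 56.7% on the 7 chromosomes. By chromosome the share ran from 1.03% on chromosome 13 to 80.8% on X. Among the 7 it ran from 45.2% on chromosome 9 to 65.3% on chromosome 2. The labels do not say what the sign stands for. On all 7 chromosomes domain ends were denser in positive bins, with 3.33 per Mb against 1.55 in negative bins over the 7 together. Coverage was also higher in positive bins on 6 of them, but by little on chromosomes 7 (40.9 against 40.1%) and 20 (47.4 against 46.5%), and it was lower on chromosome 16 (32.4 against 44.1%). Scores are scaled within a chromosome, so ranks rather than levels are compared between genes.

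The genes differed in how far down their chromosome's scores they lay. MACROD2 held the lowest bin of chromosome 20 (-0.176, at 15 to 16 Mb), next to a bin of -0.139 at rank 16 of 61. The CNTNAP2 bins had -0.133 and -0.134, at ranks 7 and 5 of 158 from the lowest, and the IMMP2L bin on the same chromosome had -0.128 at rank 10, beside the lowest bin of the chromosome (-0.146) in its flank. The 3 PTPRD bins scored -0.118, -0.139 and -0.143, at ranks 14, 9 and 8 of 124. These 4 genes thus lay at or near the negative extreme of their chromosomes, other than the first bin of MACROD2. CSMD1 followed with -0.104 and -0.107, at ranks 20 and 17 of 145.

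Nearer the middle lay LRP1B, with -0.058 in both bins at ranks 94 and 98 of 242, and WWOX with -0.079 at rank 36 of 81. FHIT was the exception in sign. Its bin scored 0.032, at rank 124 of 196, and the neighbouring bins that hold its ends scored 0.050 and 0.052. All 3 were below the median of the positive bins of chromosome 3 (0.062). Over the 14 bins the median share of the chromosome with a lower score was 10.8%, and the highest outside FHIT was 43.2%. With FHIT left out, all 13 bins were negative.

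**Figure D5:**
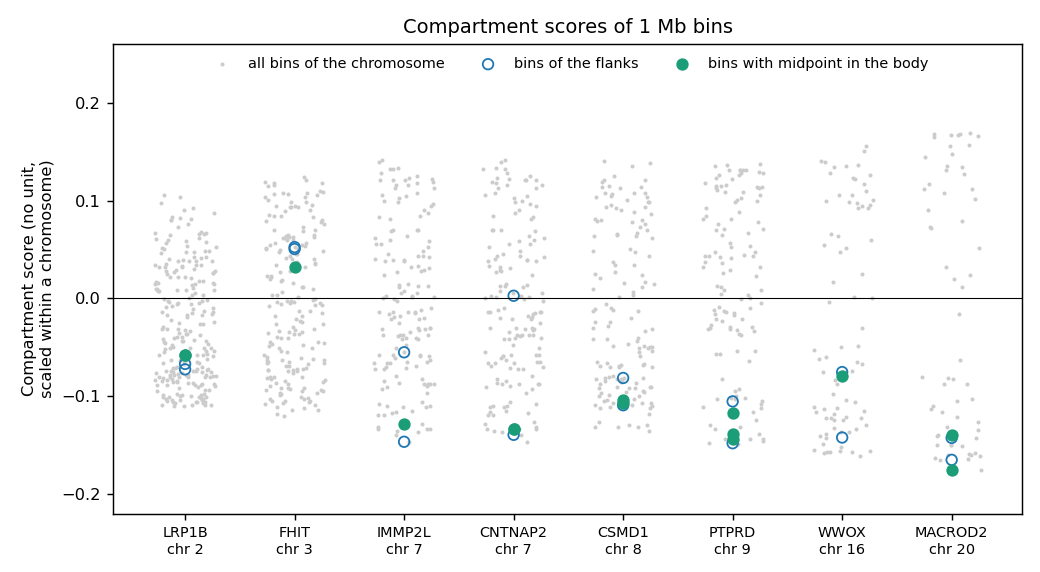
Compartment score of each 1 Mb bin (no unit, scaled within a chromosome) for bins with their midpoint in the gene body (green) and bins of the flanks (open circles), over all bins of the same chromosome (grey). Body bins are negative in 7 genes and at 0.032 in FHIT, and the lowest bin of chromosome 20 is in MACROD2.

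Loop anchors were few in bodies and flanks alike. The bodies held 3 loop anchors (0.212 per Mb) and the flanks 1 (0.125 per Mb), a difference of 0.09 per Mb (95% interval from Poisson limits -0.51 to 0.51). There were 1.05 anchors per Mb over the genome and 0.636 in the negative bins of the 7 chromosomes. Counted by bin, 2 of the 14 body bins held an anchor, against 42.6% of all bins and 41.3% of those of the 7 chromosomes. With so few anchors the order of bodies and flanks was not settled, and it turned to -0.06 per Mb without LRP1B. In 6 of the 8 windows no anchor was listed, and CNTNAP2, CSMD1, PTPRD, WWOX, MACROD2 and FHIT were those without.

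LRP1B held the only loop with both anchors in 1 body. It joined 141650001-141660000 to 141970001-141980000, 320 kb apart, with 51 contacts against 16.3 expected from the surrounding donut of pixels, a 3.14-fold enrichment (95% Poisson interval 2.34 to 4.12, counting error only). In the authors' deposited table its highest q-value over the 4 neighbourhoods used by the caller was 0.0106. The IMMP2L loop joined 110960001-110970000 in the body, 235 kb from the gene's start, to 111250001-111260000, 55 kb beyond that start, with 71 contacts and a 2.88-fold enrichment (2.25 to 3.63). The intervals of both loops overlap. Over the highest of the 4 expectations the enrichment was lower, at 2.47-fold (1.84 to 3.25) for LRP1B and 2.40-fold (1.87 to 3.02) for IMMP2L.

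These loops rested on fewer contacts than most listed loops of like length, with an enrichment over the donut that was above their median. The 261 loops with 10 kb anchors 250 to 350 kb apart had a median of 83 contacts (quartiles 66 and 99), a donut expectation of 31.1 (23.6 and 38.7) and a 2.64-fold enrichment (2.38 and 2.97). The LRP1B loop lay above the upper quartile of enrichment and below the lower quartile of contacts. Every listed loop had passed the caller's comparison of contacts with expectation, so contacts and enrichment are not free of that filter. No such median was taken for enrichment over the highest expectation. The expectations were 16.3 for LRP1B and 24.7 for IMMP2L, both below that median and that of LRP1B below the lower quartile. Whether a lower local contact count plays a part in the absence of listed domains was not tested. Neither loop joined the ends of a listed domain, as no domain lay between its anchors. Loops of 97.01 Mb on chromosome 2 and of 74.94 and 74.86 Mb on chromosome 3 span LRP1B and FHIT, with both anchors far outside their windows.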

How the data were processed

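The build was hg19 and the tools were FastQC 0.11.7, BWA 0.7.8 and Picard, per the submitters' processing notes, which name no roles for them. The way the authors combined the 2 libraries, and their domain and compartment callers, were not stated. The deposited compartment table holds 1 score per 1 Mb bin and the deposited domain table a caller score for domains called on 5 kb bins. Per the file headers, the loop table (HiCCUPS at 5 and 10 kb, per its name) holds the count of observed contacts per pixel, the expected contacts and the authors' q-value (FDR) for each of 4 neighbourhoods.

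With Python 3.11.15, overlapping domains were merged and clipped to bodies, flanks and windows, a step tested on simulated data. A bin belonged to a body if its midpoint lay in it, and an anchor by its centre. Distinct domain ends were counted. Stretches between domains were kept where no bin lacked a score. Poisson and Wilson intervals (95%) cover counting error only, and those for covered shares treat 5 kb bins as independent. The alternatives were flanks of 250 kb and 1 Mb, other bin rules, higher caller scores, domains up to 1 Mb, outermost domains, every end counted, loops up to 2 Mb or with q-values under 0.01, and leaving out each gene. Of the 9 genes on the list 1 is not reported here, for a reason that does not involve its values. The other 8 were named, with their bins, the longest, highest scoring or nearest domains, the longest free stretch and their loops; the other domains of FHIT and CNTNAP2 were named after their values were seen. The genes, lists and tests were chosen with earlier results of these data known. Other long genes were not placed, since the gene table supplied was of GRCh38.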

Additional observations from a re-analysis of the deposited data

How the results depend on the processing

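All values come from 1 map pooled over 2 libraries, so no library could be left out. No paired analysis was possible because the study had 1 group and the tables have no column for either library. The number of reads was not given, so what depth limits could not be measured, and the loop counts are small. The share of body bins that were negative was 83.3% over every bin overlapping a body, 87.5% over bins wholly inside, 100% over bins with absolute scores above their chromosome's median, and 90.9 to 100% with each gene left out in turn. The covered share of the bodies was 1.56% with domains above the median caller score, 0.518% with bodies shortened by 100 kb at each end (an alternative chosen after seeing the data, as was leaving out genes for the sign) and 1.39 to 2.74% with each gene left out. The difference in covered share, bodies minus flanks, was -33.3 percentage points. It was -7.01 points with domains above the median caller score, -28.6 points with flanks of 250 kb and -37.9 to -29.3 points with each gene left out. The difference in domain ends was -0.36 per Mb with domains above the median caller score and -1.89 to -1.40 per Mb with each gene left out. The difference in loop anchors ranged from -0.06 to 0.15 per Mb with each gene left out, and was -0.05 per Mb with q-values under 0.01 and -0.04 per Mb with flanks of 250 kb or 1 Mb. All 12 alternatives for loop anchors, and 12 of 13 for domain ends, stayed within the 95% interval of the value in the report. For the covered share of the bodies, 9 alternatives stayed within its 95% interval (1.81 to 2.92%) and 4 left it. Flanks of 250 kb and 1 Mb are among the 9, though flank width cannot alter this share. Domains up to 1 Mb also kept it at 2.30%, as the longest domain in the windows was 810 kb. The counts were also 9 and 4 for the difference in covered share (interval -35.7 to -30.9 points), which domains up to 1 Mb did not change either. Both intervals treat 5 kb bins as independent, which neighbouring bins of 1 domain are not. They are therefore too narrow, and the counts within and outside them do not measure stability. For the share of negative bins 9 stayed within its own Wilson interval and 2 left it.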
